A study of Homo sapiens with 12 samples.

Results

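Of the 43769 genes in the count table of a neuroblastoma cell line, the 42 described here had a level that was lower in every library from cells given interferon gamma (IFNγ) than in every library from cells that were not. They were selected on these very values. Counts were scaled by the library total to CPM (counts per 1000000 counts of the library), and a gene was kept when its highest CPM over the 6 IFN and DoxIFN libraries lay below its lowest CPM over the 6 Control and Dox libraries, its mean over the latter was at least 1 CPM, and the ratio of the means was at most 0.75. Of 13856 genes with a mean of at least 1 CPM, 46 met these numbers (0.332%), and 4 of the 46, LINC00641, SLC2A4, SOCS2 and TNFRSF10D, were set aside by name. Because the IFNγ difference chose the genes, it is described without a test, and tests are given for the effect of doxycycline, which the selection did not use.

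The cells were SK-N-DZ, a MYCN-amplified neuroblastoma line that carries intact ARID1A, as 1 clone with a short hairpin RNA against ARID1A under a doxycycline-inducible promoter. Each group had 3 libraries. Control cells, labelled WT, received neither agent. Dox cells, labelled shARID1A, had doxycycline for 4 days, IFN cells, labelled WT, had IFNγ for 24 hours, and DoxIFN cells, labelled shARID1A, had both. By the study's methods all groups stem from the hairpin clone grown in puromycin, and no library had doxycycline without the hairpin, so the drug, the hairpin and the loss of ARID1A cannot be told apart.

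IFNγ binds a receptor that activates the kinases JAK1 and JAK2. Transcription factors phosphorylated by these kinases bind gamma-activated sites in DNA and switch on IRF1, guanylate-binding proteins and the antigen presentation genes. Neuroblastoma is a tumor of the sympathetic nerve lineage, and its cells express genes of neurons, synapses and catecholamine synthesis.

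Library totals ran from 16469832 to 21790869 counts. The 6 IFNγ libraries held 19033653 counts or more, whereas 3 of the 6 others held 16677455 or fewer, so depth moved with IFNγ, and its part in the result was not tested. ARID1A, the target of the hairpin and a DNA-binding subunit of the SWI/SNF remodeling complex, was at 160.4 to 192 CPM in Control, 164 to 203 CPM in Dox, 184 to 194 CPM in IFN and 136 to 153 CPM in DoxIFN. The Dox and Control libraries thus overlapped for the targeted transcript. IRF1, a transcription factor induced by IFNγ, was at 1.76 to 3.01 CPM without and 350.2 to 421 CPM with IFNγ, so that all 12 libraries matched their IFNγ labels. All 12 neuroblastoma markers examined (TH, DBH, MYCN and others) passed 1 CPM and summed to 5401 to 6142 CPM without and 5083 to 6329 CPM with IFNγ. Single markers moved in both directions within these sums. Mean CPM without and with IFNγ was 1253 and 909 for MYCN, 21.95 and 14.09 for TH, and 265 and 275 for DBH. None of 8 leukocyte and 6 epithelial markers reached a mean of 1 CPM over all 12 libraries. Their sums were 0.480 to 1.46 and 0.546 to 3.14 CPM without and 0.363 to 1.70 and 0.598 to 3.00 CPM with IFNγ. The epithelial marker EPCAM was at a mean of 1.06 CPM without and 0.898 CPM with IFNγ. Among 7 Schwann cell markers 1 passed (2.36 to 7.16 CPM without, 3.06 to 10.6 CPM with IFNγ), and among 9 fibroblast markers 6 passed (81.8 to 135 CPM without, 104 to 163 CPM with IFNγ), and their part in the results was not tested. In bulk RNA, fewer cells of a type and less RNA per cell cannot be told apart.

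The differences were mostly modest. The ratio of mean CPM with IFNγ to mean CPM without it ran from 0.183 to 0.744 with a median of 0.657, a level 34.3% lower, where the median over the 13856 genes was 0.959. Only 8 of the 42 genes were at a ratio of 0.5 or less, namely SOCS2-AS1, USP2-AS1, PLPPR4, PARM1, ZNF778, DKK1, DANCR and BMPR1B. The gap between groups was narrow as well. The lowest library without IFNγ stood 2.31 times above the highest with it for SOCS2-AS1, but only 1.09 times for the median gene, and 24 genes had a gap under 1.1 times. In the opposite direction, 266 of the 13856 genes lay higher in every IFNγ library, and 233 of them had a ratio of at least 1.33. Genes with a mean under 1 CPM without IFNγ were outside this count, also where IFNγ raised them.

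**Figure D1:**
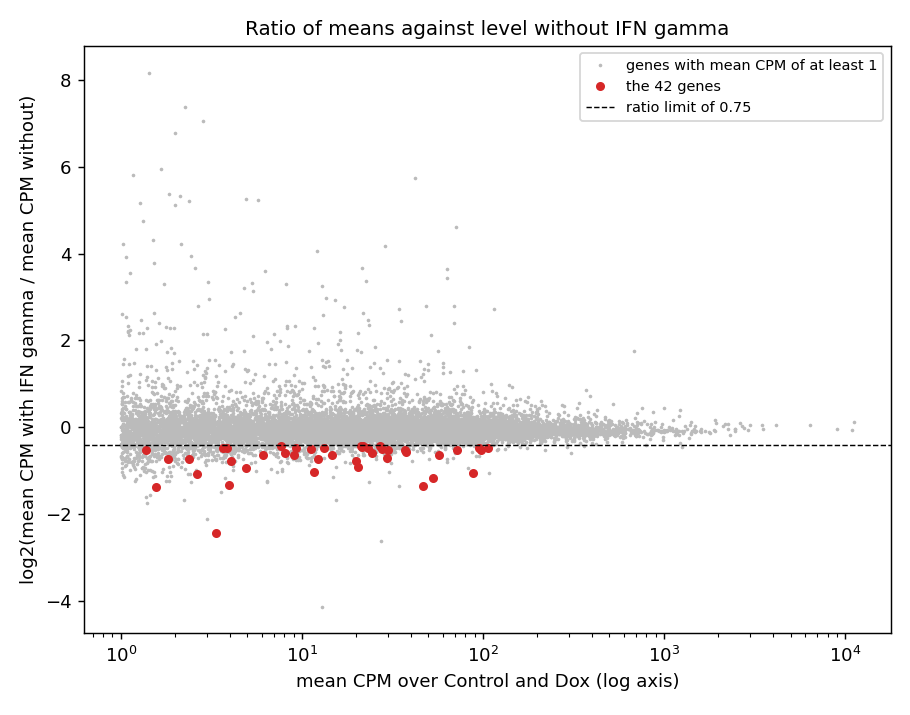
Each point is a gene, with its mean CPM over Control and Dox on the x axis (log scale) and the log2 ratio of mean CPM with IFNγ to that without on the y axis. The 42 selected genes (red) lie below the dashed limit of 0.75, spread from 1.38 to 107 CPM, and many grey points beside them passed the limit of the ratio but overlapped between libraries.

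The limits cut through a continuum. Just inside were TMEM241 at a ratio of 0.741, B3GNTL1 at 0.743 and SETD6 at 0.744, and just outside were RPL23 at 0.752, MAPKAPK5-AS1 at 0.755 and UPF3B at 0.758. A further 680 genes had a ratio of 0.75 or less with libraries that overlapped. As a summary over the 42 genes, the median level relative to a gene's own mean without IFNγ was 0.960 to 1.04 in the Control and Dox libraries, and 0.583 to 0.730 in the IFN and DoxIFN libraries.

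**Figure D2:**
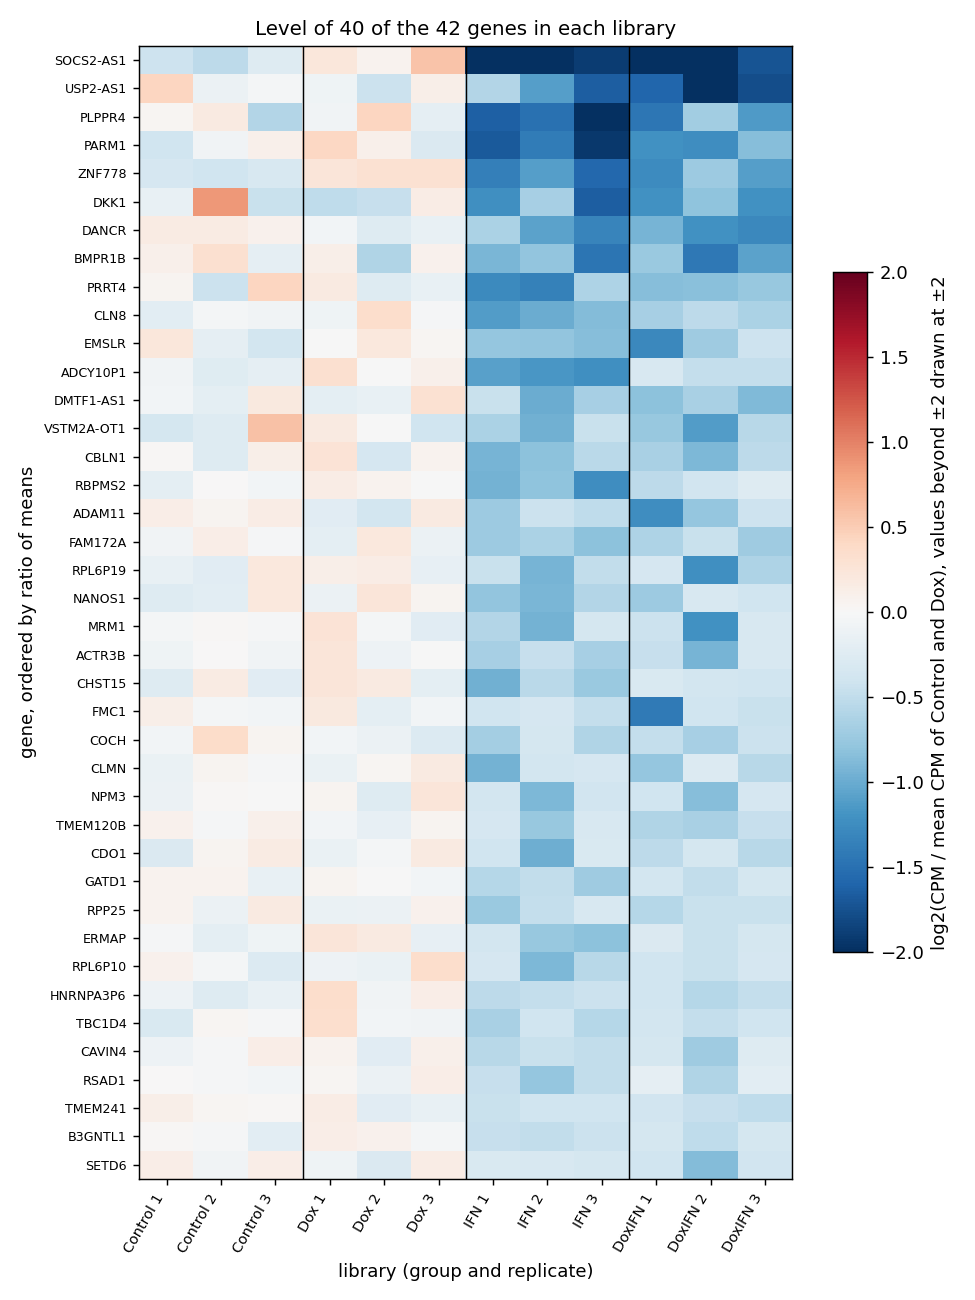
The heat map shows log2 of CPM over the mean CPM of Control and Dox for 40 of the 42 genes (rows, lowest ratio at the top) in the 12 libraries (columns). The 6 right-hand columns are below the 6 left-hand ones in every row, deeply for SOCS2-AS1 and faintly in the lower rows. In USP2-AS1, IFN 1 (1.04 CPM) came close to Dox 2 (1.16 CPM).

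Secreted and cell-surface proteins are given first. PLPPR4, a lipid phosphatase-related membrane protein of excitatory synapses, was at 47.8, 52.8 and 31.2 CPM in Control replicates 1 to 3, 44.4, 63.0 and 41.0 CPM in Dox, 15, 16.6 and 10.6 CPM in IFN, and 17.2, 29 and 21.2 CPM in DoxIFN. All IFNγ libraries were lower, but DoxIFN 2 came close to Control 3, and the mean ratio was 0.391. Its relatives PLPPR1 and PLPPR5 had ratios of 0.639 and 0.735, and PLPPR2 and PLPPR3 had ratios of 0.903 and 0.863, with adjusted p values of edgeR from 0.384 to 0.887, none called. With the replicate number as a block, PLPPR5 was called lower (log2 difference −0.45, SE 0.0972, edgeR adjusted p = 0.0125), and the adjusted p values of the other relatives ran from 0.0759 to 0.536.

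BMPR1B, a type I receptor for bone morphogenetic proteins, was at 12.5, 14.5 and 10.3 CPM in Control, 12.6, 7.65 and 12.3 CPM in Dox, 6.21, 6.72 and 4.23 CPM in IFN, and 6.99, 4.31 and 5.55 CPM in DoxIFN. The Dox and Control libraries overlapped, and the lowest without IFNγ (Dox 2) was 1.09 times the highest with it. The related type I receptor BMPR1A had a ratio of 0.998 and the type II receptor BMPR2 a ratio of 1.09, with edgeR adjusted p values of 0.977 and 0.879 (0.797 and 0.0853 with the replicate block).

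DKK1 encodes a secreted Wnt antagonist that binds the co-receptors LRP5 and LRP6. It was at 2.40, 4.81 and 1.94 CPM in Control, 1.87, 1.93 and 2.95 CPM in Dox, 1.14, 1.67 and 0.847 CPM in IFN, and 1.14, 1.52 and 1.15 CPM in DoxIFN, with 17 to 97 counts a library. The library Control 2 stood above the others. Family members went the other way: DKK3 was at a mean of 51.1 CPM without and 63.8 CPM with IFNγ (ratio 1.25, edgeR adjusted p = 0.0072), and DKK2 was listed at 0 in the 6 libraries without IFNγ and at a mean of 0.712 CPM with it (edgeR adjusted p = 0.00482).

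CBLN1, a secreted organizer that bridges neurexins and delta glutamate receptors at synapses, had a ratio of 0.608. Its level ran from 23.5 to 35.7 CPM without IFNγ (median 30.6) and from 15.5 to 20.5 CPM with it (median 17.8). ADAM11, a neuronal member of the ADAM family that lacks protease activity, had a ratio of 0.635, while the related ADAM22 and ADAM23 had ratios of 0.908 and 0.879. PARM1, a mucin-like membrane protein, was sparse, at 3.00 to 5.31 CPM without and 1.05 to 2.20 CPM with IFNγ, and its ratio of 0.394 was among the lowest. PRRT4, a proline-rich transmembrane protein, was at 15.2 to 27.6 CPM without IFNγ and 8.02 to 13.4 CPM with it, a ratio of 0.528.

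Matrix-related genes were CHST15 and COCH. CHST15, a sulfotransferase of chondroitin sulfate chains, was at 81.7 to 116 CPM without and 50.4 to 79.1 CPM with IFNγ, a ratio of 0.689, and CHST11 of the same pathway had a ratio of 1.09. COCH, which encodes the extracellular matrix protein cochlin, was at 59.8 to 92.5 CPM without IFNγ and 45.2 to 56.6 CPM with it, a ratio of 0.695. ERMAP, a butyrophilin-like erythroid membrane protein, had a ratio of 0.713.

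**Figure D3:**
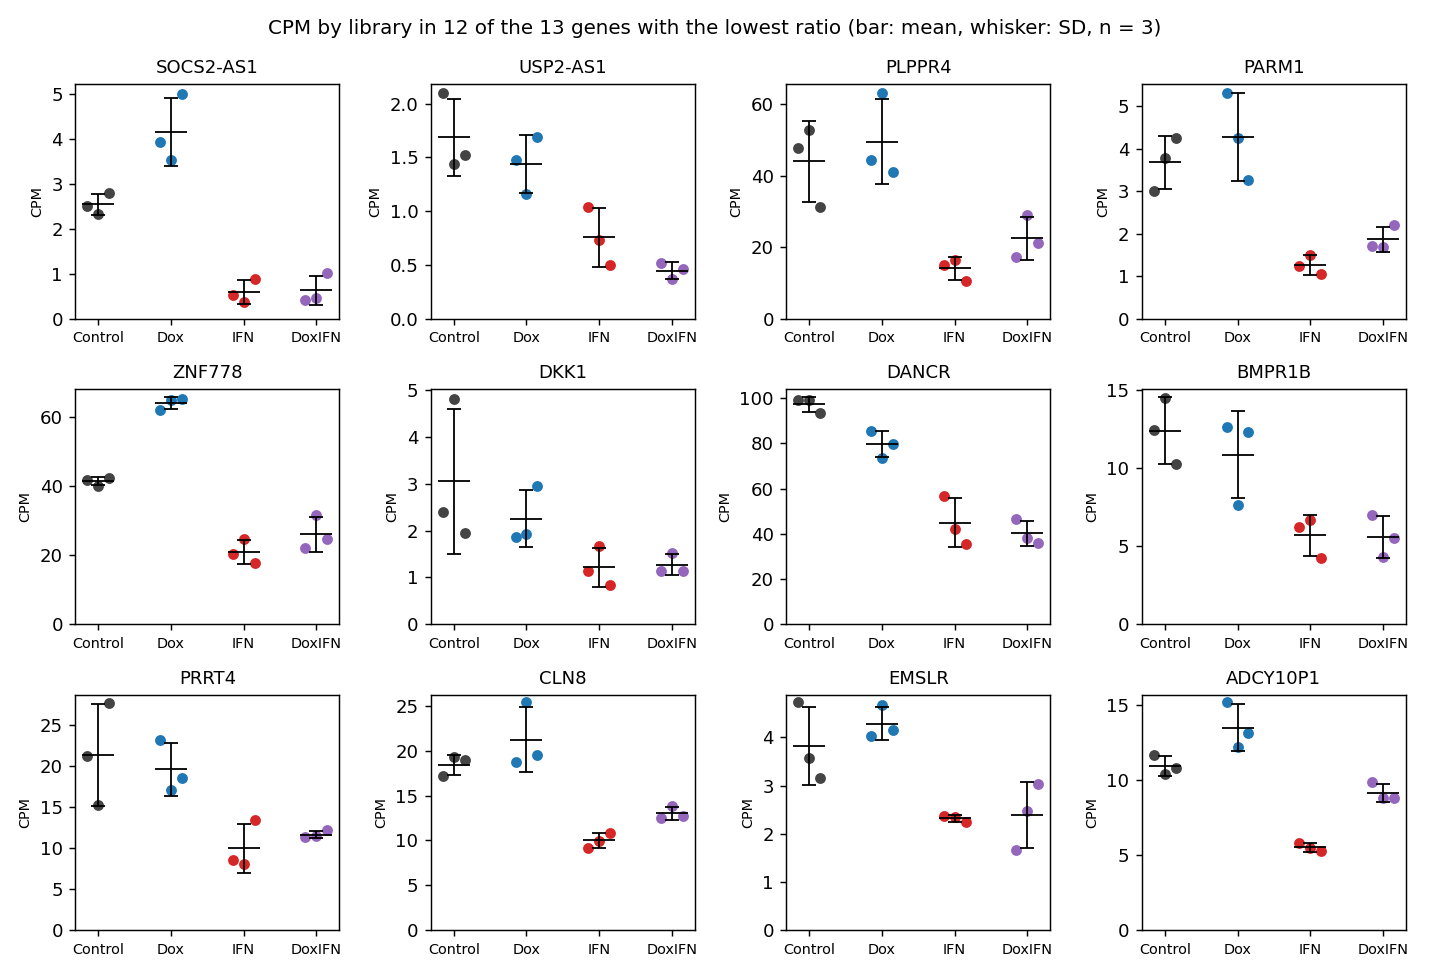
Dots are the CPM of single libraries for 12 of the 13 genes with the lowest ratio, in the Control, Dox, IFN and DoxIFN groups, with the mean as a bar and the SD as a whisker (n = 3). The groups with IFNγ lie below those without it in all 12 panels by selection, and Dox stands above Control without overlap in the panels of ZNF778 (62.1 to 65.1 against 40.2 to 42.3 CPM), SOCS2-AS1 (3.52 to 4.99 against 2.33 to 2.79 CPM) and ADCY10P1.

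Nuclear and RNA-related genes were a second group. ZNF778, a KRAB zinc finger protein of the class of transcriptional repressors, was at 41.8, 40.2 and 42.3 CPM in Control, 62.1, 64.9 and 65.1 CPM in Dox, 20.5, 24.6 and 17.7 CPM in IFN, and 22, 31.8 and 24.6 CPM in DoxIFN. The Dox libraries were above the Control libraries without overlap, whereas DoxIFN and IFN overlapped. The ratio was 0.505 for IFN over Control and 0.408 for DoxIFN over Dox.

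NPM3, a histone chaperone of the nucleoplasmin family, was at 30.8 to 43.7 CPM without and 19.9 to 29.5 CPM with IFNγ (ratio 0.698), beside 0.845 for NPM1 (edgeR adjusted p = 0.457, and 0.0072 with the replicate block) and 0.866 for NPM2. RPP25, a protein subunit of RNase P and RNase MRP, had a ratio of 0.711, and RPP25L had 0.995. The RNA-binding proteins RBPMS2 and NANOS1 had ratios of 0.635 and 0.656, and MRM1, a methyltransferase of mitochondrial ribosomal RNA, had 0.657. The related RBPMS had a ratio of 0.789 (edgeR adjusted p = 0.808, and 0.0145 with the replicate block). NANOS3 had a ratio of 0.884 (edgeR adjusted p = 0.971, and 0.823 with the block). SETD6, a lysine methyltransferase that acts on RELA, lay at the limit with 0.744, from 17.7 to 24.0 CPM without and 11.9 to 17.6 CPM with IFNγ. RELA itself had a ratio of 1.03 (edgeR adjusted p = 0.781, and 0.391 with the replicate block).

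Organelle, trafficking and metabolic genes made up most of the rest. CLN8, which escorts lysosomal enzymes from the endoplasmic reticulum to the Golgi and is mutated in a neuronal ceroid lipofuscinosis, was at 17.2, 19.3 and 18.9 CPM in Control, 18.8, 25.5 and 19.6 CPM in Dox, 9.20, 9.95 and 10.9 CPM in IFN, and 12.5, 13.9 and 12.8 CPM in DoxIFN. Its ratio was 0.579, and CLN6, named for the same disease group, had a ratio of 0.809 (edgeR adjusted p = 0.22, and 0.0307 with the replicate block). TBC1D4, a Rab GTPase-activating protein of glucose transporter traffic, was at 76.9 to 121 CPM without and 60.8 to 74.4 CPM with IFNγ, a ratio of 0.721, with TBC1D1 at 0.915. ACTR3B, a paralog of the Arp3 subunit of the actin-nucleating Arp2/3 complex, was at 34.9 to 44.4 and 19.8 to 30.2 CPM, a ratio of 0.675. ACTR3, the main Arp3 gene, had a ratio of 1.06. The related ACTR3C was sparse, at means of 0.197 CPM without and 0.515 CPM with IFNγ. Its edgeR adjusted p was 0.0754, and 0.0446 with the replicate block.

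GATD1 had the highest mean CPM over Control and Dox of the 42 genes, with 96.4 to 113 CPM without IFNγ and 65.3 to 84.0 CPM with it and a ratio of 0.710. FAM172A was at 50.4 to 66.7 and 32.7 to 42.2 CPM, a ratio of 0.637. FMC1, an assembly factor of mitochondrial ATP synthase, had a ratio of 0.690 with 10 to 32 counts a library. CDO1, the cysteine dioxygenase that starts cysteine breakdown, had 0.706, and CAVIN4, a component of muscle caveolae, had 0.725. Further coding genes were CLMN, TMEM120B, RSAD1, TMEM241 and B3GNTL1, with ratios of 0.695, 0.701, 0.739, 0.741 and 0.743.

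Transcripts without a coding annotation were 11 of the 42. By GENCODE type, 31 genes were protein coding (73.8%, against 89.5% of the 13856 genes), 4 antisense (9.52% against 2.93%), 3 processed pseudogenes (7.14% against 1.80%), 2 processed transcripts, 1 sense-overlapping RNA and 1 transcribed unprocessed pseudogene. These shares are a description of a set selected on CPM, whose lowest value in any library was 7 counts. Per kilobase of merged exon, the scale that allows genes to be set side by side, NPM3 (39.9 CPM per kb) and DANCR (38.7 CPM per kb) were the most abundant without IFNγ, and USP2-AS1 (0.328 CPM per kb) the least.

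DANCR, a long noncoding RNA that hosts a small nucleolar RNA, was the most abundant of these 11. In GENCODE release 29 (GRCh38), the annotation used for the gene and exon positions given here, it lies at chr4:52712404-52720351 on the plus strand. Its level was 99.2, 99.4 and 93.6 CPM in Control, 85.3, 73.8 and 79.8 CPM in Dox, 56.8, 42.3 and 35.6 CPM in IFN, and 46.4, 38.0 and 36.2 CPM in DoxIFN. The Dox libraries were below the Control libraries without overlap, and every IFNγ library was below both.

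SOCS2-AS1 had the lowest ratio, 0.183. It was at 2.52, 2.33 and 2.79 CPM in Control, 3.93, 3.52 and 4.99 CPM in Dox, 0.521, 0.365 and 0.897 CPM in IFN, and 0.414, 0.473 and 1.01 CPM in DoxIFN, with 7 to 83 counts a library. Dox was above Control without overlap, and IFN and DoxIFN overlapped. The gene is transcribed from the minus strand at chr12:93542463-93571768, opposite SOCS2, a suppressor of cytokine signaling, and 277 bases (7.26%) of its merged exons are also exon of SOCS2, which was at a mean of 27.4 CPM without and 4.46 CPM with IFNγ. Whether counting used strand is not given in the sources used here, and reads of the pair cannot then be told apart in the shared bases.

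For other antisense and overlapping RNAs, ratios are given beside those of the coding neighbor, with no test of the difference. USP2-AS1 had a ratio of 0.386, from 1.16 to 2.10 CPM down to 0.368 to 1.04 CPM, while USP2 had 0.739. DMTF1-AS1 had 0.603 beside 0.959 for DMTF1, and VSTM2A-OT1 had 0.605 beside 0.801 for VSTM2A. None of these 3 coding neighbors was called by edgeR (adjusted p from 0.526 to 0.991, and from 0.0554 to 0.882 with the replicate block). EMSLR, an antisense RNA, was at 3.16 to 4.74 CPM without and 1.66 to 3.03 CPM with IFNγ, a ratio of 0.580.

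The set held 4 pseudogenes. ADCY10P1 was at 11.7, 10.4 and 10.8 CPM in Control, 15.2, 12.2 and 13.1 CPM in Dox, 5.78, 5.47 and 5.23 CPM in IFN, and 9.84, 8.83 and 8.77 CPM in DoxIFN. Its parent gene ADCY10, a soluble adenylyl cyclase, was near 0 (mean 0.0839 and 0.0389 CPM). In contrast, RPL6P19 (ratio 0.640) and RPL6P10 (ratio 0.715) derive from RPL6, a protein of the large ribosomal subunit that was at a mean of 1227 CPM without and 945 CPM with IFNγ (ratio 0.770, log2 difference −0.34 ± 0.081 SE, edgeR adjusted p = 0.0438). Both are processed copies, to which reads of RPL6 could be assigned, so their values are uncertain, and how alike the sequences are was not compared. The same holds for HNRNPA3P6 (ratio 0.718) and HNRNPA3 (731.8 and 698 CPM, ratio 0.954).

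**Figure D4:**
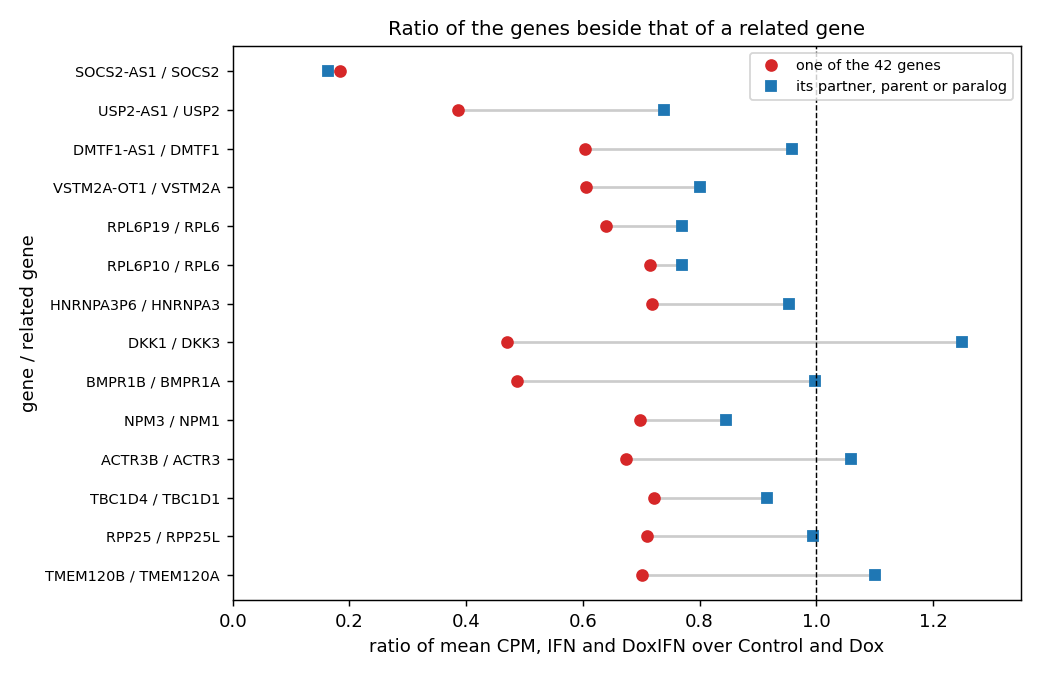
For 14 pairs, the ratio of mean CPM with IFNγ to that without is shown for one of the 42 genes (circle) and for an antisense neighbor, parent gene or paralog (square), with the dashed line at 1. SOCS2-AS1 and SOCS2 share a low ratio (0.183 and 0.163), whereas DKK3, TMEM120A and ACTR3 lie at 1.06 or above.

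Overlap with other genes touched more of the set. COCH shares 1096 exon bases (27.2%) with the antisense gene LOC100506071 (ratio 0.567), TMEM120B shares 2542 bases (30.1%) with RHOF (ratio 1.04), and SETD6 shares 1086 bases (21.4%) with CNOT1 (ratio 1.01). Reads in such shared bases cannot be assigned to one of the genes without strand.

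Of the pathway lists examined, 3 hold one of these genes. Leaving out CBLN1, edgeR called 0 of 66 tested genes of synaptic vesicles and synapse organization lower and 3 higher (LRRTM2, STXBP5 and UNC13A) for IFN and DoxIFN against Control and Dox, and 7 lower and 7 higher with the replicate number as a block. Leaving out BMPR1B, it called 0 of 47 tested genes of TGF-beta and BMP signaling in either direction, and 0 lower and 3 higher with the block. Leaving out DKK1, it called 0 of 44 tested Wnt genes lower and 3 higher (DKK2, DKK3 and WNT5A), and 2 lower and 4 higher with the block. With the 3 genes included, the medians of these lists were −0.01, 0.04 and −0.03 on the log2 scale, where the median of all tested genes was −0.01. Of all 15828 tested genes, 0.398% were called lower and 3.41% higher in that contrast, and 3.57% and 7.32% with the block. Among the 42 genes 23 were called lower, a count that follows from the way they were chosen.

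The selection required the difference in both doxycycline arms. The median ratio was 0.637 for IFN over Control and 0.669 for DoxIFN over Dox, and 25 of the 42 genes had the lower ratio in the arm without doxycycline. PLPPR4 (0.320 and 0.454), DKK1 (0.399 and 0.565) and ADCY10P1 (0.502 and 0.678) had the lower ratio without doxycycline, and SOCS2-AS1 (0.233 and 0.152), USP2-AS1 (0.449 and 0.312) and ZNF778 (0.505 and 0.408) had it with doxycycline. The interaction, the difference between the arms, was called for none of the 42 genes by edgeR (0 at an unadjusted p under 0.05, against 0.625% of all tested genes), and 0% of the 15828 genes were called lower and 0% higher. DESeq2 called none of the 42 either. By edgeR the interaction was above 0 in 24 of the 42 genes, beside 48.6% of all tested genes. A gene whose arms differ widely meets the condition of no overlap less easily, which limits this comparison.

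**Figure D5:**
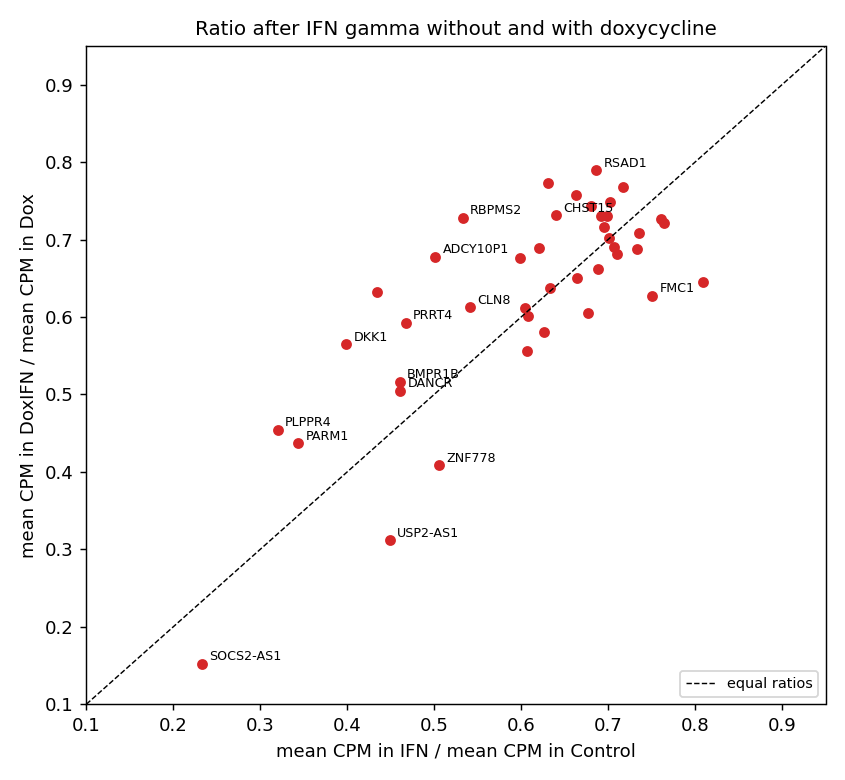
Each point is one of the 42 genes, with the ratio of mean CPM in IFN to Control on the x axis and in DoxIFN to Dox on the y axis, and a dashed line of equal ratios. SOCS2-AS1 lies lowest on both axes (0.233 and 0.152), 25 points lie above the line and 17 on or below it.

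Doxycycline alone was a comparison that the selection did not rest on, although a gene with a large doxycycline effect meets the condition of no overlap less easily. In Dox against Control, edgeR called 0 of the 42 genes (3, or 7.14%, at an unadjusted p under 0.05, against 14.2% of all tested genes), where 0.733% of the 15828 tested genes were called lower and 0.493% higher. In DoxIFN against IFN it called 0 again (3, or 7.14%, at an unadjusted p under 0.05, against 12.2% of all tested genes), where 0.569% were called lower and 0.101% higher. The median log2 difference of the 42 genes was −0.05 in the first and −0.03 in the second comparison, beside 0.00 and −0.01 over all tested genes.

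By the plain count of libraries, 2 of the 42 genes, DANCR among them, were lower in all 3 Dox libraries than in all 3 Control libraries (5.97% of the 13856 genes were), and SOCS2-AS1, ZNF778, ADCY10P1 and HNRNPA3P6 were higher (16.4%). In DoxIFN against IFN, SETD6 was lower without overlap (5.14%), and PLPPR4, PARM1, CLN8, ADCY10P1, RBPMS2 and CHST15 were higher (14.5%). ADCY10P1 was the gene with higher CPM in both comparisons. In Dox against Control edgeR did not call it (adjusted p = 0.577, and 0.255 with the replicate number as a block). These counts rest on CPM by column total, and they were not repeated with TMM factors. Those factors were 1.032 to 1.065 in Dox and 0.9747 to 0.9996 in Control, so the scale raises Dox over Control. The 4 higher genes in the first comparison and the 6 in the second are 9.52% and 14.3% of the set, below or near the shares of all genes.

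With the replicate number as a block, a pairing that the libraries bear out, edgeR called 2 genes in each comparison. ZNF778 was higher in Dox than in Control by 0.54 on the log2 scale (SE 0.124, adjusted p = 0.0188 with the block and 0.122 without), and DANCR was lower by a log2 difference of −0.38 (SE 0.106, adjusted p = 0.0384 with the block and 0.317 without). ADCY10P1 was higher in DoxIFN than in IFN by 0.64 (SE 0.120, adjusted p = 0.00941 with the block and 0.0961 without), as was PLPPR4 by 0.59 (SE 0.151, adjusted p = 0.0344 with the block and 0.401 without). The block raised the calls among all genes as well, to 7.67% lower and 6.23% higher in Dox against Control, and to 6.62% lower and 3.85% higher in DoxIFN against IFN. The change of each of these named genes was in the same direction in 3 of 3 pairs of libraries, which follows from their lack of overlap in CPM. The blocked interaction called none of the 42.

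Membership depended on the scale. With column totals the median gene was at a log2 difference of −0.06 between IFNγ and other libraries, against −0.02 with TMM factors. Under TMM 28 genes met the rule, 27 of them among the 42, and under DESeq2 size factors also 28 with the same 27. The 15 that did not included USP2-AS1, VSTM2A-OT1, ADAM11, MRM1, FMC1, COCH, NPM3, TMEM120B, CDO1, CAVIN4, RSAD1, TMEM241, B3GNTL1 and SETD6. The median log2 ratio of the 42 was −0.61 with column totals and −0.57 with TMM factors.

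Promoters were examined for 25 of the 42 genes that have an entry among the RefSeq promoter sequences of GRCh38.p14, in the 250 bases before the start. The starts are those of this promoter set, and for DANCR the start differs from that in GENCODE. The gamma-activated site, searched as TTCNNNGAA, a motif that reads alike on both strands, occurred in 2 of the 25 (8%), against 5.52% of 10785 promoters of genes with at least 1 CPM and 6.57% of all 35116. The 2 were DANCR, at −219 to −211 from the start, and TMEM120B, at −193 to −185. Their upstream sequences are shown because they hold this motif in genes whose level was lower with IFNγ, with the match in capitals, both on the plus strand, DANCR at chr4:52712144-52712393 and TMEM120B at chr12:121712502-121712751.

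DANCR: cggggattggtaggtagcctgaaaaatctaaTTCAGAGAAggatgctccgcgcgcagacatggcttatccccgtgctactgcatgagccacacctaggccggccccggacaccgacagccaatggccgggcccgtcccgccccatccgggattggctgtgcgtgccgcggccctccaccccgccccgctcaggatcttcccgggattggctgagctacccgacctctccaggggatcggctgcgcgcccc
TMEM120B: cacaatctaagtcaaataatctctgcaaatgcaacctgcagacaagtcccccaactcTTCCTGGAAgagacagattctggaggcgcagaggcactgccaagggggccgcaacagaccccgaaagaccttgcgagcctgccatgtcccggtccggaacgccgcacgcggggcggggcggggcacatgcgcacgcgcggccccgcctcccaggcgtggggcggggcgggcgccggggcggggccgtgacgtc

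TATAAA, searched on both strands, occurred in 3 of the 25 promoters (12%), those of DKK1, COCH and CAVIN4, against 5.02% of promoters of genes with at least 1 CPM and 10.7% of all. In DKK1 and COCH the match lay at −30 to −25, and in CAVIN4 at −73 to −68. The stretch before CAVIN4, on the plus strand at chr9:100577979-100578078, is shown with the match in capitals as the example without a neighboring exon.

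CAVIN4: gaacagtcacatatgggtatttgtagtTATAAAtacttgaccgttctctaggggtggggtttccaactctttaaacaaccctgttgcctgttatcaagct

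The other motifs were searched on both strands. CCAAT was in 8 of 25 (32.0%, against 35.1% of promoters of genes with at least 1 CPM), with 4 matches in DANCR alone. GGGCGG, the GC box, was in 15 (60% against 67.5%), CACGTG, the E-box of MYC, in 3 (12% against 9.14%), TGACG in 7 (28.0% against 30.3%) and CCGGAAG, an ETS site, in 3 (12% against 16%). The core of the interferon-stimulated response element was in 0 of 25 (against 1.97%) and the E2F site TTTGGCGC in 0 of 25 (against 0.881%). The median GC content was 66.8% against 65.2%. A match is a description of letters, and none of these shares was tested.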

How the data were processed

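RNA of 12 SK-N-DZ samples was sequenced as paired-end reads, and the authors deposited raw counts per gene as whole numbers for 43769 genes. The aligner, the counting tool, the strand setting and the genome build are not given in the sources used here, and the submitters' processing notes name DESeq2 alone. The authors also deposited 3 tables of DESeq2 comparisons (fold changes and p-values), which were not used, and 18 per-library columns in them carry names that no sample label explains.

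Counts were divided by column totals for the selection and for all CPM values. Doxycycline contrasts were tested on all genes with edgeR 4.0.16 (limma 3.58.1, R 4.3.3): TMM factors, filterByExpr with a minimum count of 10, a quasi-likelihood model of the 4 groups without a block, two-sided tests and Benjamini-Hochberg adjustment, with a gene called at an adjusted p under 0.05. All 42 genes were among the 15828 tested. Partner genes and lists were tested for IFN and DoxIFN against Control and Dox in the same model, and again with the replicate number as a block, which was added after seeing the data. DESeq2 1.42.0, other scalings, filters, a replicate block and leaving out each library were alternatives. The code was tested on simulated data. Promoter and annotation work used Python 3.11.15, and all 43769 gene identifiers occur in GENCODE release 29.

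The genes, lists and tests were chosen with earlier results of these data known, and the partner genes and role groups after their values were seen. By rule, values were printed for the 12 genes with the lowest ratio, the 10 with the highest CPM, those called for doxycycline, those on a pathway list, and the 3 on each side of the ratio limit. Ratios of most remaining genes were added afterwards. Counts and medians cover all 42 genes, and 2 of them, with some other genes, are not reported here by name or in the heat map. Labels do not say whether replicates were separate cultures, so p-values measure the spread between these libraries, which may be technical. Library pairs within a group differed by a chi-square per gene of 18.4 to 78.6. As a check of pairing, each library's deviations from its group mean were correlated: 18 same-number pairs gave r of 0.345 to 0.791, while the 36 remaining pairs gave r of −0.613 to 0.126, so the numbers were taken to pair the libraries.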

Additional observations from a re-analysis of the deposited data

How the results depend on the processing

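The number of genes that met the selection was 42, and it fell to 8 with a ratio of at most 0.5. With Control and IFN libraries alone it was 322, and with Dox and DoxIFN libraries alone 233, of which 61 were in both (18.9% and 26.2%). Leaving out 1 library gave 47 to 69 genes, since fewer libraries had to be free of overlap, with 64 without Control 2, 69 without DoxIFN 1 and 68 without DoxIFN 3. Of the 42 genes, 34 met the rule in each of the 12 such runs. The median log2 ratio was −0.65 for IFN over Control alone, and ranged from −0.65 to −0.58 with 1 library left out. For Dox against Control, DESeq2 called 1 of the 42 genes (ZNF778, adjusted p = 0.0306) and the replicate block 2, and for DoxIFN against IFN, DESeq2 called 1 (ADCY10P1, adjusted p = 0.0156) and the replicate block 2, where the unblocked edgeR model called 0. The cause was not tested. Leaving out 1 library, the other scalings, no filter and the compared groups alone gave 0 calls in both comparisons, and the interaction gave 0 under every alternative run. Scaling by library size alone moved the median of the 42 genes to 0.04 in Dox against Control and 0.06 in DoxIFN against IFN, from −0.05 and −0.03. Sparse genes limit precision: FMC1 had as few as 10 counts and SOCS2-AS1 and USP2-AS1 as few as 7 in a library, and the narrow gaps of 24 genes rest on single libraries. Of the partner genes set beside the 42, edgeR called 4 for IFN and DoxIFN against Control and Dox and 9 with the replicate block, an alternative chosen after seeing the data.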
